A study of Arabidopsis thaliana with 11 samples.

Results

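The step from 3 to 4 chromosome sets was examined in seedlings of the Arabidopsis ecotype C24, by setting the 3 arrays of tetraploid plants (title code TET) against the 3 arrays of triploid plants with the title code TME. These were 6 of the 11 arrays of a study of ploidy, whose other arrays were 3 triploids with the title code TFE and 2 diploids. The arrays were chosen by their title codes alone, with no measured value. The tetraploids had been made with colchicine, a drug that blocks the mitotic spindle and so doubles the chromosome set. The triploids of both codes came from crossing a tetraploid and a diploid plant, and the labels do not spell out what TFE and TME stand for. All groups were whole C24 seedlings at growth stage 1.02, an early leaf stage, raised from cold-stratified seed on agar in a growth chamber with 16 h days. All 4 groups therefore share the ecotype, the medium and the chamber regime, and no group carried a named mutation or transgene.

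RNA was hybridised to Affymetrix ATH1 arrays, 1 biotin-labelled sample per array, on which a probe set (a group of short probes for a transcript) gives 1 signal. A ploidy step multiplies every nuclear gene alike, so that the balance among nuclear genes is kept, whereas the genomes of chloroplasts and mitochondria are present in many copies that are not set by the number of nuclear chromosome sets. Plants with more chromosome sets usually have larger cells, and triploids, with an odd number of sets, are known for unbalanced meiosis. Each array had been scaled to the same trimmed mean signal, 100.01. A rise or fall of all transcripts of a cell together would therefore not be seen, and each difference below is relative to the rest of the array. In whole seedlings, fewer cells of a type and less RNA per cell cannot be told apart.

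The arrays of a group carry consecutive numbers in their titles, so that a possible order of handling and the ploidy cannot be told apart. The labels do not say whether replicates were sown separately. The p-values then reflect only how far these arrays varied, and that may be technical. The mesophyll markers RCA, the activase of Rubisco, and PSAN, a photosystem I subunit, were bright on all 6 arrays, with signals from 4743 to 5328 and from 2235 to 2959 in tetraploids and from 4906 to 5692 and from 2217 to 2319 in TME. The stomatal lineage gene FAMA lay above the 40th percentile of its array on 6 of 6 arrays, SPCH of the same lineage on 5, and the root hair expansin EXPA7 on 5. The stomatal gene MUTE, the trichome gene TRY and the meristem gene CLV3 exceeded it on 0 of 6, and CLV3 lay at or just above the floor of 2.279 on all 6. Markers of epidermis, vascular tissue, flowers, seeds and senescence had 0 probe sets with 1 gene name and were not read here. Rank correlations among the 6 arrays ran from 0.953 to 0.973. The array that stands apart in the series, TFE replicate 3 (0.861 to 0.88 with the others), is no member of this comparison and enters its fit only through the shared variance.

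No transcript differed between tetraploid and TME seedlings beyond the threshold. Of 15075 probe sets kept, 0 (0%) had a Benjamini-Hochberg adjusted p under 0.05 in limma, a linear model with variances shared across probe sets. The smallest adjusted p was 0.138. At an unadjusted p under 0.05 there were 697 (4.62%), with 330 (2.19%) higher and 367 (2.43%) lower in tetraploids. The same fit called 71 probe sets (0.471%) between the same tetraploids and the TFE triploids, 58 higher (0.385%) and 13 lower (0.0862%) in tetraploids. These comparisons share the tetraploid arrays. The count against TFE was 76 without TFE replicate 3, 126 without TFE replicate 1, 22 without tetraploid replicate 1 and 13 without tetraploid replicate 3. It was 0 with the spiked-in control level as a covariate. That level was 250, 242 and 257 in tetraploids and 372, 594 and 627 in TFE, so that its part and that of the group cannot be told apart.

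The fitted differences between tetraploids and TME were mostly small. The median absolute log2 difference was 0.141, and percentiles 5 and 95 were -0.379 and 0.439. Percentiles 1 and 99 were -0.728 and 0.781. The corresponding percentiles 1 and 99 were -0.906 and 1.2 for tetraploids against TFE, with a median absolute difference of 0.204. Above 0 lay 7837 differences (52%), and the median was 0.00903. A step of over 2-fold was fitted for 75 probe sets in the upward direction (0.498%) and 58 in the downward direction (0.385%).

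A missed threshold does not show equal levels, and the 95% intervals give what 3 arrays a group could resolve in this fit. Its spread was estimated from all 11 arrays, TFE replicate 3 among them, so the intervals are not those of the 6 arrays alone. The median interval reached 0.427 log2 units to either side. It lay wholly within a 2-fold change in either direction for 12407 probe sets (82.3%), and wholly within a 1.5-fold change for 7323 (48.6%). For the others, a change of more than 1.5-fold in at least one direction remained inside the interval. The 3 tetraploid arrays lay apart from the 3 TME arrays for 2205 probe sets (14.6%), above them for 1211 (8.03%) and below them for 994 (6.59%).

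**Figure D1:**
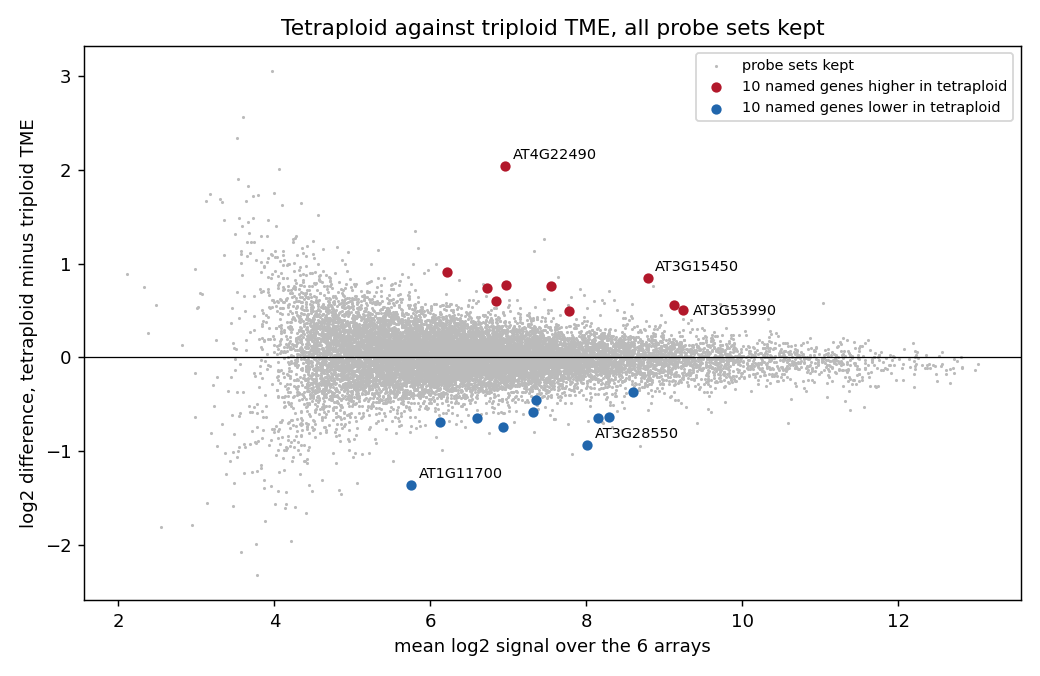
Log2 difference, tetraploid minus triploid TME, of each of the 15075 probe sets kept (vertical axis) against its mean log2 signal over the 6 arrays (horizontal axis). Red points are the 10 named genes higher and blue points the 10 named genes lower in tetraploids. The cloud is centred near 0 and widens at low signal, where the largest differences lie, and 0 points passed the adjusted threshold.

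The genes that stood out most follow a rule: among probe sets with 1 gene, arrays that did not overlap and a mean above 85.4, the median signal of the probe sets kept, in the brighter group, the 10 higher and the 10 lower with the smallest p are named. None of these 20 passed the adjusted threshold, so their values are given as measured levels and not as changes. Their arrays do not overlap by the rule's own construction.

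AT4G22490, of the lipid-transfer protein family, had signals of 255.1, 183.4 and 344.0 in tetraploids, against 84.39, 54.5 and 50.62 in TME. Each tetraploid array was more than 2-fold above the brightest TME array. The group means were 261 ± 80.5 in tetraploids and 63.2 ± 18.5 in TME (SD, n = 3 each), with which is a log2 difference of 2.04 ± 0.41 (limma, SE, adjusted p = 0.47) and a 95% interval of 1.16 to 2.91. This was the widest of the 20 named differences. It passed the threshold where the fit held only the 6 arrays (2.04, adjusted p = 0.012), with weights for array quality (2.02, adjusted p = 0.015) and without TFE replicate 3 (2.04, adjusted p = 0.036).

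AT3G53990, a universal stress protein, was at 703.3, 727.2 and 740.2 in tetraploids, against 478.1, 563.6 and 488.7 in TME. Its tetraploid arrays were tight and its log2 difference was small, 0.51 ± 0.10 (SE; limma, adjusted p = 0.47). AT3G15450, a transcript on the fixed list of sugar starvation and dark genes, was at 530.6, 482.5 and 803.5 in tetraploids, against 283.9, 371.8 and 338.3 in TME, with a difference of 0.84 ± 0.18 (adjusted p = 0.49). In TME it had already stood 1.13 log2 units above diploids (adjusted p = 0.043), and the highest TME array remained below the lowest tetraploid array. AT5G60680, a small protein of the S40-like family linked to senescence, was at 696.9, 630.3 and 699.1 in tetraploids, against 392.3, 464.4 and 526.1 in TME, with a difference of 0.56 ± 0.13 (adjusted p = 0.62).

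The other 6 named genes on the higher side had log2 differences from 0.493 to 0.913. AT5G59770, a PTPLA-like protein related to the dehydratases of very-long-chain fatty acid synthesis, had 113.0, 77.17 and 121.2 in tetraploids, against 63.21, 41.74 and 60.01 in TME. AT5G56100, a glycine-rich protein, and AT4G29030, a putative membrane lipoprotein, stood 0.777 and 0.763 higher in tetraploids. AT1G19330, which resembles a subunit of histone deacetylase complexes, stood 0.736 higher, at 143.8, 114.7 and 152.7 in tetraploids, against 77.28, 78.51 and 89.8 in TME. AT2G38820, of a plant family of unknown function (DUF506), had a difference of 0.60 ± 0.15, and AT1G22520, a homologue of a protein of the mitochondrial contact site, one of 0.49 ± 0.13. Adjusted p-values of these 6 ran from 0.49 to 0.82.

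On the lower side the leading gene was AT1G11700, a second member of the S40-like family. Its signals were 28.76, 30.9 and 43.29 in tetraploids, against 90.7, 73.63 and 97.11 in TME, so that the brightest tetraploid array stayed well below the dimmest TME array. The tetraploid signals were dim, and that of replicate 1 lay below percentile 40 of its array (29.3). The size of the difference is therefore not exact. The log2 difference was -1.36 ± 0.25 (SE; limma, adjusted p = 0.47), with an interval of -1.88 to -0.832. It passed the threshold with weights for array quality (-1.38, adjusted p = 0.034). The fitted differences of the 2 family members had opposite signs, AT5G60680 with a higher and AT1G11700 with a lower measured level in tetraploids. Neither passed the threshold in the main fit, and a divergence within the family was not tested.

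AT3G28550, an extensin-like protein of the cell wall, had 131.4, 254.9 and 194.9 in tetraploids, against 392.7, 330.3 and 348.8 in TME, a log2 difference of -0.93 ± 0.22 (limma, adjusted p = 0.6). Its tetraploid arrays were spread over nearly 2-fold while its TME arrays were close together. A pair of genes of the wound-responsive protein family were both lower, a grouping made after their values were seen. AT4G33560 was at 122.6, 77.21 and 88.77 in tetraploids, against 209.4, 129.8 and 143.9 in TME. AT4G10270 was at 294.5, 220.7 and 245.2 in tetraploids, against 399.3, 388.1 and 385.9 in TME. Their differences were -0.74 ± 0.20 and -0.64 ± 0.18 (adjusted p = 0.83 for both).

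The remaining 6 on the lower side lay between -0.686 and -0.368. They were the short-chain dehydrogenase AT2G29170, the rhodanese-like protein AT3G59780, the DnaJ-domain chaperone AT5G49580, the class III peroxidase Prx37, the core histone gene AT2G28720 and the KH-domain RNA-binding protein AT3G13230. AT2G28720 encodes a histone of the H2B type and was at 125.7, 156.2 and 140.4 in tetraploids, against 177.7, 200.1 and 199.6 in TME. Their adjusted p-values were 0.82 or 0.83.

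**Figure D2:**
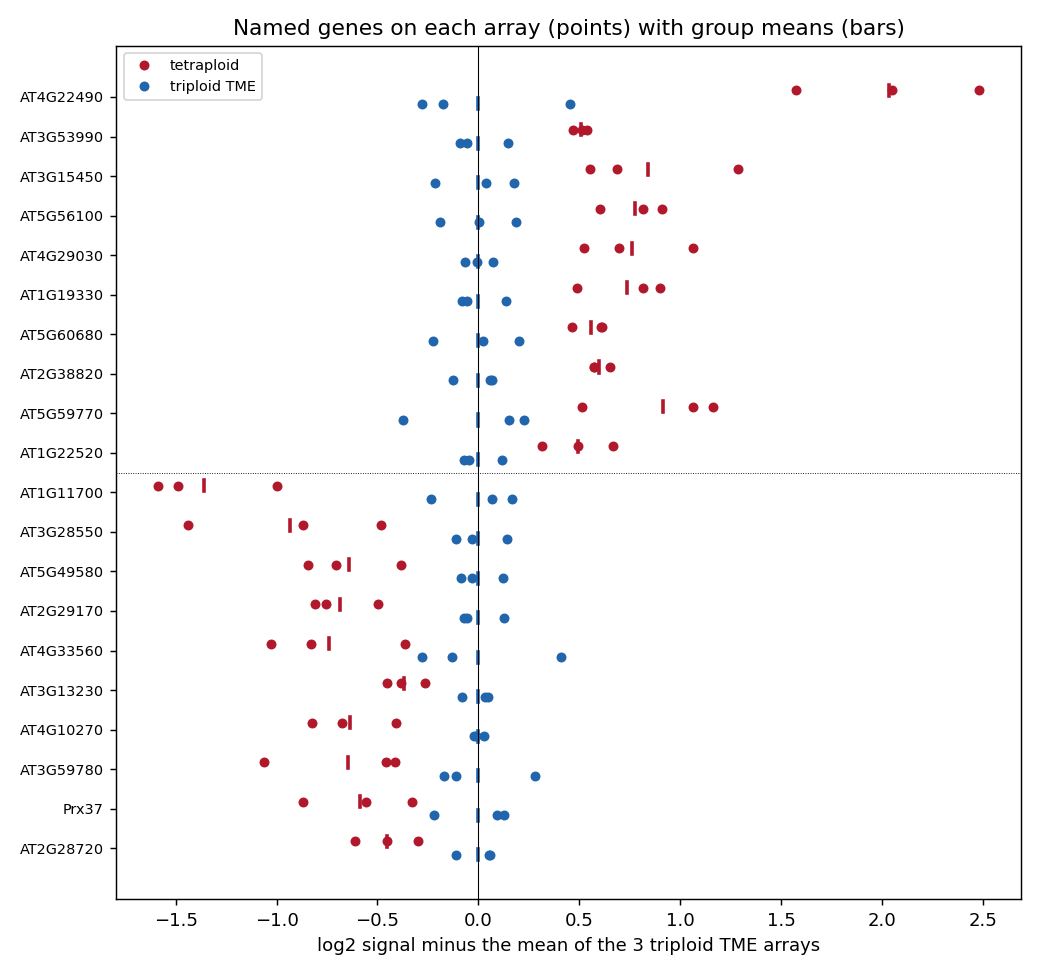
Each row is 1 of the 20 named genes and each point 1 array, as log2 signal minus the mean of the 3 triploid TME arrays; red is tetraploid, blue is triploid TME, and short bars are group means. The 10 genes above the line are higher and the 10 below it lower in tetraploids, with AT4G22490 at 2.04 and AT1G11700 at -1.36 the farthest from 0.

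Probe sets without a gene name cannot be tied to a function here, and those that follow were chosen after their values were seen. The smallest adjusted p of the comparison belonged to 264960_at, at 297.0, 346.4 and 255.4 in tetraploids, against 683.4, 556.2 and 496.1 in TME. Its log2 difference was -0.95 ± 0.14 (SE; limma, adjusted p = 0.14). It passed the threshold with weights for array quality (-0.893, adjusted p = 0.015) and without TFE replicate 3 (-0.948, adjusted p = 0.036). The probe set 260427_at, at 141.2, 160.9 and 155.8 in tetraploids, against 243.3, 250.3 and 228.1 in TME, had a difference of -0.66 ± 0.12 (adjusted p = 0.47, or 0.048 with weights for array quality).

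Among the 25 genes taken from other comparisons of the series, some are known from stress signalling or carbon shortage and are described here. AT3G07350, on no list of such genes, is described with them. The others stand above or with their gene groups below. ORA47 is an AP2/ERF transcription factor that acts in jasmonate signalling, PUB19 a U-box ubiquitin ligase of drought and abscisic acid signalling, and STZ a zinc-finger repressor induced by many stresses. Since all of them were picked for how they moved in comparisons that share arrays with this one, their values are a description.

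ORA47 was at 308.0, 216.0 and 281.2 in tetraploids, against 191.2, 188.4 and 160.8 in TME. The lowest tetraploid array lay only slightly above the highest TME array, and the log2 difference of 0.56 ± 0.32 (limma, SE, adjusted p = 1.0) had an interval from -0.119 to 1.25. Against the TFE arrays, at 39.8, 99.2 and 52.5, the same tetraploids stood 2.17 ± 0.32 log2 units higher (adjusted p = 0.0073). In diploids its signals were 23.9 and 10.2, dim enough that differences from them have no exact size.

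PUB19 kept the widest gap of this group, with 343.0, 173.6 and 229.1 in tetraploids, against 107.3, 84.63 and 141.0 in TME. The log2 difference was 1.14 ± 0.32 (SE; limma, adjusted p = 0.83), and against TFE it was 2.37 ± 0.32 (adjusted p = 0.004). AR781, a touch and wound gene, was at 85.52, 102.6 and 126.3 in tetraploids, against 76.51, 85.47 and 71.43 in TME. Its groups nearly touched, with a difference of 0.42 ± 0.20 (adjusted p = 1.0), whereas against TFE it was 1.16 ± 0.20 (adjusted p = 0.019). STZ overlapped between the groups, at 208.5, 137.8 and 111.2 in tetraploids, against 199.6, 224.0 and 120.1 in TME.

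A trio of DUF506 genes stood higher on all 3 tetraploid arrays than on any TME array: AT2G38820, described above, AT2G20670 and AT3G07350. AT2G20670 was at 380.2, 377.6 and 448.5 in tetraploids, against 215.0, 313.6 and 336.0 in TME. AT3G07350 was at 279.1, 329.4 and 418.2 in tetraploids, against 213.8, 278.5 and 250.4 in TME. For AT3G07350 the lowest tetraploid and the highest TME array nearly touched. Their differences from TME were 0.50 ± 0.30 (limma, adjusted p = 1.0) and 0.46 ± 0.16 (adjusted p = 0.95). Without TME replicate 1 the first was 0.304, and without tetraploid replicate 3 the second was 0.301. From TFE they differed by 1.76 (adjusted p = 0.018) and 1.3 (adjusted p = 0.002). The grouping by family was made after the values were seen. Without TFE replicate 3 the differences of the tetraploids from TFE were 2.08 for ORA47 and for PUB19, 1.05 for AR781, 1.28 for AT2G20670 and 1.36 for AT3G07350 (adjusted p from 0.0028 to 0.033). With the spiked-in level as a covariate they were 1.96, 2.45, 1.18, 1.41 and 1.36 in the same order of genes, and 0 of these 5 passed the threshold (adjusted p from 0.24 to 1.0).

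**Figure D3:**
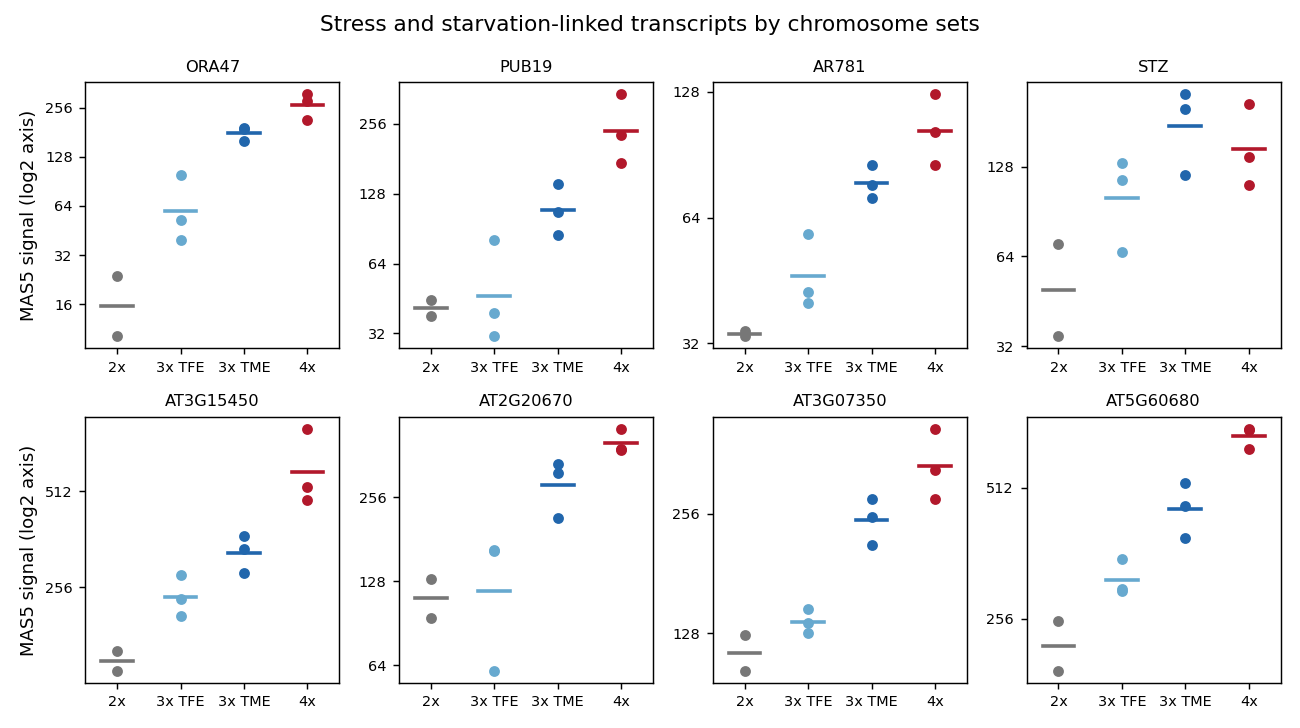
MAS5 signal on a log2 axis of 8 genes taken from other comparisons of the series, on each array (points) with group means on the log2 scale (bars). The plot's title names stress and starvation, but AT5G60680 and AT3G07350 are on no list of such genes. From left to right the columns are diploid (2x), triploid TFE (3x TFE), triploid TME (3x TME) and tetraploid (4x). In 7 of the 8 panels the tetraploid bar is the highest, with the TME bar next; in the panel of STZ the TME bar is the highest.

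The difference between the tetraploid step taken from TME and that taken from TFE is the contrast of the triploid codes themselves, since the tetraploid arrays cancel. That contrast, TFE minus TME, called 4 probe sets (0.0265%), 1 higher (0.00663%) and 3 lower (0.0199%) in TFE. The 1 gene named among them was rpl33, a protein of the large subunit of the chloroplast ribosome. Its signals were 976.1, 974.7 and 858.5 in tetraploids, against 863.6, 1049.0 and 960.7 in TME. The groups overlapped, with which is a log2 difference of -0.03 ± 0.11 (limma, SE, adjusted p = 1.0), while the difference of tetraploids from TFE was -0.769 (adjusted p = 0.0057) and TFE stood 0.738 above TME (adjusted p = 0.039). The 3 others have no gene name: 252367_at, 254120_at and 255742_at, at -2.12, -1.13 and -0.899 in TFE minus TME (adjusted p = 0.039, 0.039 and 0.048). The size for 252367_at is not exact, since 2 of its 3 TFE signals lay below percentile 40 of their array. With the replicate number as a block, 0 of these 4 calls were made (smallest adjusted p = 0.0768), and 0 were made in 9 of the 11 fits that left out 1 array. Without TFE replicate 3 the values of rpl33, 252367_at, 254120_at and 255742_at in TFE minus TME were 0.772, -1.88, -1.16 and -0.816 (adjusted p from 0.064 to 0.095).

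It was also tested whether the step from TME to tetraploid differed from the step from diploid to TME. The contrast (tetraploid minus TME, less TME minus diploid) called 0 of 15075 probe sets (0%), with 412 (2.73%) at an unadjusted p under 0.05 and a smallest adjusted p of 0.17. That smallest value belonged to 254120_at, which was at 174.9, 155.2 and 151.6 in tetraploids, against 155.1, 134.2 and 134.2 in TME. Its step from TME to tetraploid was 0.186, and that from diploid to TME 2.14 (limma, adjusted p = 0.00017). The contrast of the steps resolves less than the main one. Its median 95% interval reached 0.77 log2 units to either side, against 0.427, and only 2 arrays were diploid. The 0 calls therefore do not show that the steps were equal.

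Gene lists were described by the measured members with 1 gene name, and 19 of 47 lists had at least 5. In these 19 lists 0 members were called. The lists are read against all probe sets kept, of which 52% were higher and 14.6% did not overlap, with a median of 0.00903.

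Photosynthesis rests on a division of labour, with antenna proteins and many small subunits encoded in the nucleus and the reaction centres in the chloroplast genome. Of 9 nuclear photosynthesis genes, 2 were higher and 7 lower in tetraploids, and their median difference was -0.112. LHCB4.3, an antenna protein of photosystem II, had 295.9, 366.2 and 314.1 in tetraploids, against 374.2, 389.7 and 454.7 in TME, a difference of -0.32 ± 0.14 (limma, adjusted p = 1.0). Its arrays did not overlap. PSAE-1, a photosystem I subunit, and LHCB4.1, an antenna protein, overlapped, with differences of -0.236 and -0.115. The median of the list turned to 0.034 with the spiked-in control level as a covariate.

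Of 69 chloroplast genome transcripts 22 were higher and 47 lower in tetraploids. Their median log2 difference was -0.0459, and 9 of them did not overlap. On each array, the median deviation of these transcripts from the mean of all arrays was 0.0676, -0.255 and -0.135 in tetraploids, against 0.166, -0.323 and 0.0319 in TME. The groups overlapped, and the lowest of the 6 arrays was TME replicate 2. The list's median turned to 0.00109 with quantile normalization and to 0.12 with the spiked-in control level as a covariate. It ran from -0.226 to 0.0443 when 1 array was left out, and was above 0 without tetraploid replicate 2 or TME replicate 1.

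Within the chloroplast genome the ribosomal proteins stood lowest, with 2 of 15 higher and 13 lower and a median of -0.239. That median was below 0 in all 15 settings in which it was recomputed, from -0.318 to -0.0949 when 1 array was left out, and was closest to 0, at -0.0507, with the spiked-in control level as a covariate. On each array the median deviation of these genes was -0.0649, -0.226 and -0.284 in tetraploids, against 0.125, -0.208 and 0.00287 in TME. The groups thus overlapped, with TME replicate 2 below tetraploid replicate 1. The small-subunit protein gene rps19 was at 1815.0, 2003.0 and 1834.0 in tetraploids, against 2847.0, 2214.0 and 2553.0 in TME, a log2 difference of -0.42 ± 0.13 (limma, adjusted p = 0.83). For rps18, of the same subunit, the signals were 163.2, 191.2 and 154.2 in tetraploids, against 210.6, 223.2 and 200.5 in TME. Both genes had arrays that did not overlap. The large-subunit gene rpl32 overlapped by a single pair of arrays, at 554.4, 516.5 and 362.8 in tetraploids, against 706.9, 549.0 and 634.7 in TME.

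The genes psaJ, rpl33 and rps18 lie next to each other on the chloroplast genome, and their values went 3 ways. psaJ, a small photosystem I subunit, was at 2630.0, 2558.0 and 2529.0 in tetraploids, against 1888.0, 1451.0 and 1852.0 in TME, a log2 difference of 0.58 ± 0.18 (limma, adjusted p = 0.85). The difference was -0.03 ± 0.11 for rpl33 and -0.32 ± 0.13 for rps18 (adjusted p = 1.0 for both). The tetraploid arrays of psaJ were close together and all above the TME arrays.

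The chloroplast RNA polymerase gene rpoA was at 727.6, 703.6 and 473.4 in tetraploids, against 943.5, 843.2 and 962.3 in TME (-0.55 ± 0.18, limma, adjusted p = 0.88). The arrays of rpoA did not overlap, and all 4 polymerase transcripts measured were lower. psbA, the reaction centre protein of photosystem II, overlapped between the groups, at 3197.0, 1677.0 and 1958.0 in tetraploids, against 4638.0, 2347.0 and 3094.0 in TME. In both groups replicate 1 was the brightest and replicate 2 the dimmest array for psbA. Within each same-numbered pair of arrays the tetraploid signal was the lower, and the difference of -0.56 ± 0.28 (limma, adjusted p = 1.0) also had an adjusted p of 1.0 with the replicate number as a block. It was -0.3 without TME replicate 1. The same order of arrays held for psaA, of photosystem I, at 4439.0, 2108.0 and 3979.0 in tetraploids, against 4280.0, 1553.0 and 3791.0 in TME. The NDH complex, with 5 higher and 5 lower, cytochrome b6f with 3 and 3, photosystem I with 2 and 3, photosystem II with 6 and 9 and the ATP synthase with 2 and 4 had medians within 0.05 of 0. Those medians depended on the setting. With the spiked-in control level as a covariate they were 0.128 for NDH, 0.0634 for cytochrome b6f, 0.154 for photosystem I, 0.135 for photosystem II and 0.157 for the ATP synthase. Without 1 array they reached as far as -0.27 for photosystem I and -0.259 for the ATP synthase.

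Mitochondrial genome transcripts had 5 of 12 members higher and 7 lower, a median of -0.153, and 0 with arrays apart. Some members were dim. The tetraploid means of ccb206, cox2, nad5, nad6 and nad9 ran from 21.7 to 27.8, near or below percentile 40 of those arrays (26.9 to 29.3). The directions of these members, and the median with them, are therefore weakly measured. The array medians were 0.262, -0.45 and -0.357 in tetraploids, against 0.207, -0.0356 and 0.00303 in TME. Tetraploid replicate 1 was the highest of the 6 arrays and the other 2 tetraploids the lowest. The median turned to 0.0658 with the spiked-in control level as a covariate. nad4, a subunit of respiratory complex I, was at 502.6, 294.1 and 325.1 in tetraploids, against 529.0, 410.4 and 438.1 in TME.

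Among 11 histone genes 5 were higher and 6 lower, with a median of -0.0228. Without 1 array that median ran from -0.116 to 0.0514, and it was above 0 without tetraploid replicate 1, tetraploid replicate 3 or TME replicate 2. AT2G28720, named above, was the lowest, and HTB2, another gene of the same histone type, stood higher without overlap at 61.97, 66.75 and 64.8 in tetraploids, against 54.32, 53.61 and 51.39 in TME. The DNA glycosylase DME, which removes methylated cytosine and acts in imprinting, had 3 probe sets with differences of 0.374, -0.0204 and -0.078 (adjusted p = 1.0 for each). MPC, known from the study of imprinting, and GI, of the circadian clock, had differences of 0.152 and 0.0632 with overlapping arrays.

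Expansins loosen the cell wall and xyloglucan endotransglucosylases recut its tethers, and both act as cells enlarge. Of 16 such genes 11 were higher and 5 lower in tetraploids. The median was 0.0777, and 0 reached an unadjusted p under 0.05. EXPB1 was at 104.8, 90.74 and 162.7 in tetraploids, against 78.64, 70.39 and 78.33 in TME (0.61 ± 0.30, limma, adjusted p = 1.0). Without tetraploid replicate 3, its brightest array, the difference was 0.365. EXPA7, the one measured marker of roots, was at 49.59, 32.59 and 55.12 in tetraploids, against 31.24, 24.7 and 28.76 in TME. The arrays of both genes lay apart, and those of EXPA18, also of root hairs, overlapped. The part of a differing share of root tissue in these values was not tested. EXGT-A3, a xyloglucan endotransglucosylase, overlapped with a difference of -0.06 ± 0.12.

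The touch, wound and early stress list had 5 of 8 members higher and 3 lower and a median of 0.171. PUB19 and AR781 were the 2 members whose arrays lay apart. The median ran from -0.106 to 0.389 with 1 array left out, and fell below 0 without tetraploid replicate 1. The list of cold, drought and abscisic acid had only 4 measured genes, fewer than the 5 asked of a list, and all were higher. Of these, COR15A, a chloroplast protein made in the cold, averaged 316 in tetraploids and 206 in TME. Its difference was 0.66 ± 0.20 (limma, adjusted p = 0.83), and it was singled out after its values were seen. The sugar starvation and dark list, also with 4 measured genes, had 2 higher and 2 lower.

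Of 6 flavonoid and anthocyanin genes 2 were higher and 4 lower, with a median of -0.174 that turned to 0.0306 without tetraploid replicate 2. DFR, the reductase that leads to anthocyanins, was at 50.22, 45.08 and 59.72 in tetraploids, against 41.93, 44.68 and 42.47 in TME. Its lowest tetraploid array was barely above its highest TME array. The flavonol glycosyltransferases UGT78D1 and UGT78D2 overlapped, with differences of -0.284 and -0.177. DFR differed by 0.26 ± 0.22 (limma, adjusted p = 1.0).

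The trichome birefringence-like family, which acetylates wall polymers, had 6 of 15 members higher and 9 lower (median -0.0931), with TBL26 at 68.55, 87.43 and 62.64 in tetraploids, against 103.9, 126.3 and 101.7 in TME (-0.61 ± 0.20, limma, adjusted p = 0.9). Without 1 array its median ran from -0.146 to -0.0187. Of 12 cytochromes P450, enzymes that oxidise many small molecules, 4 were higher and 8 lower (median -0.127). The list in the plot holds 14 genes, since the cyclophilins CYP59 and CYP71 share the symbol, and without 1 array its median ran from -0.128 to -0.0586. Glycosyltransferases of the UGT family had 15 of 26 higher and 11 lower (median 0.0558), among them UGT71C4, at 234.7, 236.1 and 248.0 in tetraploids, against 180.6, 169.4 and 229.2 in TME. The calmodulin-binding gene IQD26 was at 33.18, 27.51 and 46.4 in tetraploids, against 16.18, 18.28 and 24.31 in TME, and its family had 5 of 9 higher. All TME signals of IQD26 lay below percentile 40 of their array, so the size of its difference is not exact. The PUB ubiquitin ligases were even, with 4 of 8 higher, and WRKY factors had 4 of 5 higher. The medians of these families depended on the setting. Without 1 array they ran from -0.0485 to 0.0771 for UGT and from -0.00836 to 0.106 for IQD. For PUB they ran from -0.169 to 0.116, and for WRKY from -0.0498 to 0.13. The UGT median was -0.0511 with the spiked-in control level as a covariate.

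**Figure D4:**
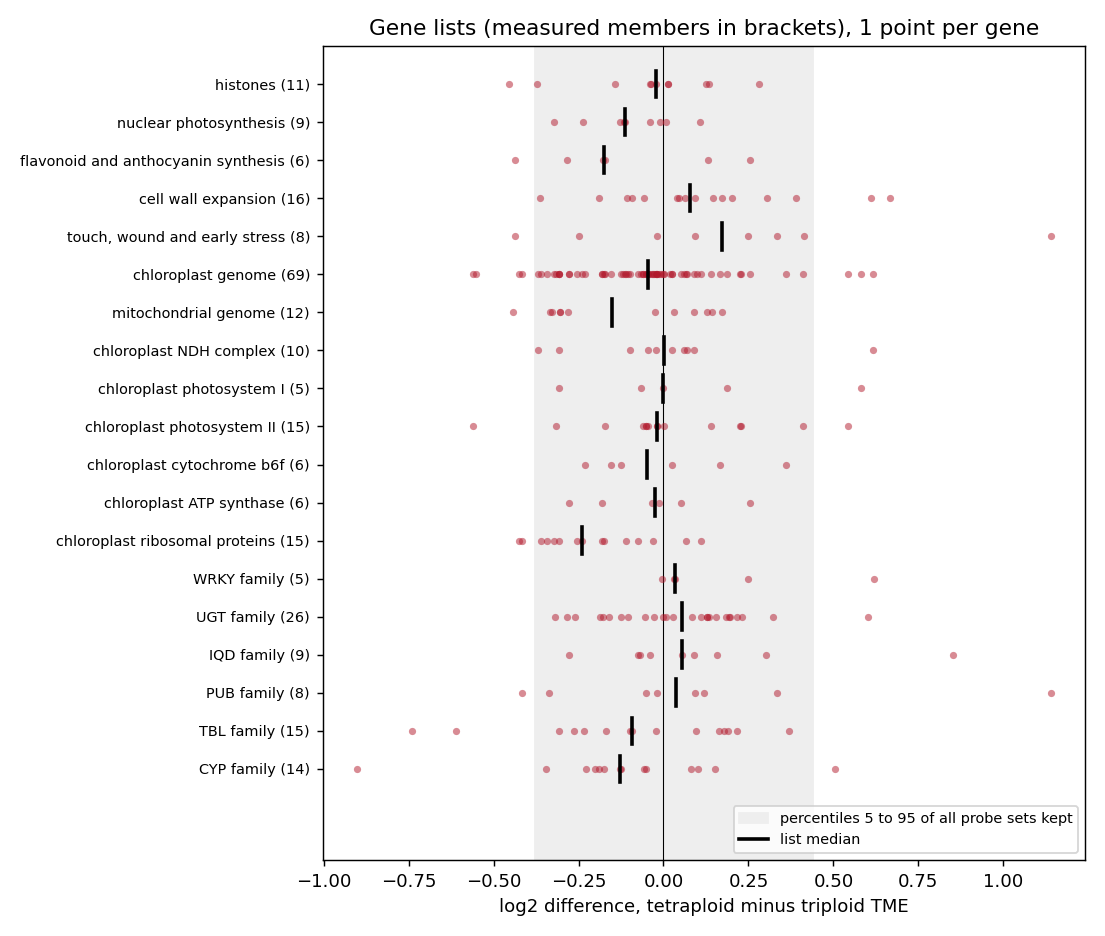
Log2 difference, tetraploid minus triploid TME, of each measured gene (1 point) in the 19 lists with at least 5 measured members, with the list median as a black bar; the grey band spans percentiles 5 to 95 of single probe sets, -0.379 to 0.439, and is a scale for the points and not for the medians. The medians run from -0.239 for the chloroplast ribosomal proteins to 0.171 for the touch, wound and early stress list.

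By chromosome, the median log2 difference of named nuclear genes was 0.0259 on chromosome 1 (2112 probe sets), 0.00212 on chromosome 2, 0.0163 on chromosome 3, 0.00138 on chromosome 4 and 0.0223 on chromosome 5. Relative to all nuclear genes of each array, 4 of the 5 chromosomes overlapped between the groups. On chromosome 1 the array medians were 0.0346, -0.00389 and -0.00364 in tetraploids, against -0.00863, -0.008 and -0.00402 in TME. The groups did not overlap there, but the gap was under 0.001 and 1 tetraploid array carried most of the difference (exact permutation test, 2-sided p = 0.1, the smallest that 3 against 3 arrays allow).

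Some measures of the arrays themselves moved with the groups. The spiked-in bacterial hybridisation controls had mean signals of 250, 242 and 257 in tetraploids, against 425, 272 and 312 in TME. The signal of a 3-prime probe set over that of the 5-prime one usually falls as RNA integrity rises. For actin this ratio was 1.54, 2.3 and 1.91 in tetraploids, against 2.87, 2.95 and 2.92 in TME. A further actin pair of probe sets also separated the groups (0.403, 0.344 and 0.308 in tetraploids, against 0.539, 0.466 and 0.407 in TME). For GAPDH the ratio was 0.882, 0.895 and 0.723 in tetraploids, against 1.11, 0.971 and 0.989 in TME. Each of these 4 measures was lower on all 3 tetraploid arrays (exact permutation p = 0.1 each, 2-sided, the smallest this design allows). A ubiquitin pair ran the other way, at 1.29, 1.22 and 1.01 in tetraploids, against 0.952, 0.995 and 0.906 in TME (exact permutation p = 0.1), and a further ubiquitin pair and a further GAPDH pair overlapped (exact permutation p = 1.0 and 0.6). The part of these measures in the differences above was not tested. The fit with the spiked-in level as a covariate also called 0 probe sets. It cannot settle this, since the main fit had called 0 already and that level did not overlap between the groups.

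**Figure D5:**
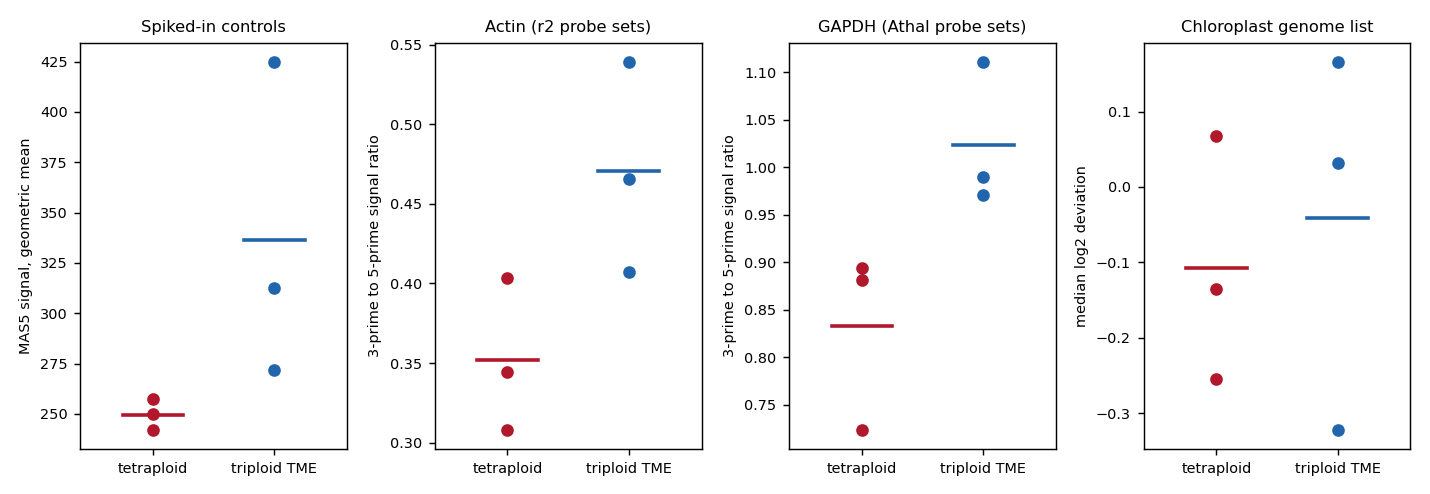
Measures of each array (points) with group means (bars), tetraploid at the left and triploid TME at the right of each panel: the geometric mean signal of 18 spiked-in control probe sets, the 3-prime to 5-prime signal ratios of actin and GAPDH, and the median log2 deviation of the 69 chloroplast genome transcripts. The groups do not overlap in the first 3 panels and overlap in the chloroplast panel.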

How the data were processed

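The deposited values are linear intensity values, 1 signal per probe set and array, made by the authors. The submitters' processing notes name MAS5 without a version. Scanner files and detection calls were not used here. No array pair held identical values. Precision is limited by how many arrays there are.

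After 64 control probe sets were set aside, the 22746 plant probe sets were floored at 2.279 (percentile 10 of the pooled values) and put on the log2 scale. Probe sets that exceeded percentile 40 of their array at least 2 times in 11 arrays were kept: 15075 (66.3%). Group means of all 11 arrays were fitted with limma 3.58.1 in R 4.3.3 (intensity trend, 2-sided). The fit was tested on simulated data.

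Gene names are those of the platform annotation, updated with the TAIR10.1 table. Of the probe sets kept 8161 had 1 gene, 293 several and 6621 none. Mitochondrial genes were matched by symbol. The sources used here do not give the array's genome build, and no coordinates or sequences are printed. FLC had 0 named probe sets.

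The comparison, gene lists and named genes were chosen with earlier results of these data known. Named genes were the 20 defined in the report, 25 that other comparisons of the series lead with, the members with the smallest p (up to 3) of lists with at least 5 measured, and calls between the triploid codes. Lists have counts and medians but no test, with 1 probe set per gene. A planned gene family and a planned gene are not reported here.

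Alternatives changed the filter, floor, scaling, variance model, array weights, arrays fitted, spiked-in level as a covariate and replicate block, or left out each array. Same-numbered tetraploid and TME arrays deviated together (r = 0.1035, 0.1207 and 0.1396 across probe sets, against -0.1325 to 0.02666 for other pairs). The titles' numbers were therefore taken as pairing the samples in the replicate block, an alternative setting. The main fit used group means without this pairing, and its p-values, SEs and intervals are unpaired.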

Additional observations from a re-analysis of the deposited data

Results flagged for a closer look

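For 4 probe sets the step to the tetraploid level from triploid TFE differed from that from triploid TME without a replicate block, in a test of that difference itself (TFE minus TME, limma, log2 scale). The values were -2.12 for 252367_at, -1.13 for 254120_at, 0.738 for rpl33 and -0.899 for 255742_at. With the replicate number as a block 0 of these 4 passed (smallest adjusted p = 0.0768), and 0 passed in 9 of the 11 fits without 1 array. The unnamed 252367_at had 314.6, 215.4 and 297.4 in tetraploids, against 75.26, 115.4 and 167.7 in TME; its step from TME was 1.26 (adjusted p = 0.65) and its step from TFE 3.38 (adjusted p = 0.00033). Its TFE signals were 23.88, 39.73 and 18.82, and 2 of these 3 lay below percentile 40 of their array, so that the sizes against TFE are not exact. For 255742_at the step was 0.212 from TME (adjusted p = 1.0) and 1.11 from TFE (adjusted p = 0.002). For 254120_at it was 0.186 from TME (adjusted p = 1.0) and 1.32 from TFE (adjusted p = 0.002).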

How the results depend on the processing

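Tetraploid against TME gave 0 calls in 20 of 23 alternative settings. The exceptions were 4 calls with weights for array quality, 1 with only the groups compared in the fit, and 0 to 2 over the 11 settings without 1 array, where the 2 came without TFE replicate 3. The difference of the steps gave 1 call with weights and 1 with only the groups compared. With the replicate block, tetraploid against TME kept 0 calls (smallest adjusted p = 0.194), TFE minus TME had 0, and the block changed no other count by over 1.5 times. TFE minus TME had 7 calls with weights for array quality, and 0 with the spiked-in covariate, median scaling, no filter, no intensity trend, only the groups compared or quantile normalization (0 to 6 without 1 array). Tetraploid against TFE had 0 calls with the spiked-in covariate, 20 with no filter, 3 with no intensity trend, 19 with only the groups compared, and 13 to 126 without 1 array. 

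Of 1919 recomputed differences of named genes and probe sets, 15 changed sign and 7 came to pass the threshold. Sign changes were at 0.0716 for RCA, 0.00705 for LHCB4.1, 0.0635 and 0.00363 for DME (250835_at and 250836_at) with the spiked-in covariate, 0.0333 for DME (250835_at) with array weights, and 0.00382 for rpl33 with quantile normalization. With 1 array left out, rpl33 ran from -0.103 to 0.0374, PSAN from -0.0258 to 0.177, DME (250835_at) from -0.217 to 0.185, MPC from -0.028 to 0.365, GI from -0.00764 to 0.136 and psaA from -0.27 to 0.52. Leaving out 1 array of the groups compared moved 42 of 84 such differences by over 1.5 times, and 0 of the 20 chosen by smallest p. Those 20 were picked on the same arrays for a small p and no overlap. Such a choice favours differences that stay put, so the 0 is no support for them. No scaling moved the median of all probe sets by over 0.1. The causes were not tested.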
